A study of Rattus norvegicus with 132 samples.

Results

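The comparison set jejunum epithelium of irradiated Sprague Dawley rats given compound Kushen injection by the intraperitoneal route against that of irradiated rats given the injected vehicle. It holds 24 of the 132 libraries of the series, 6 in each of 4 groups, chosen by their labelled arm, tissue and day. The groups are injection at day 4 (I_CKI_D4_J), vehicle at day 4 (I_VC_D4_J), injection at day 7 (I_CKI_D7_J) and vehicle at day 7 (I_VC_D7_J). The vehicle held 0.25% Tween-80 in 25 mM HEPES. All 24 rats' tissue had been irradiated: the abdomen received 5 fractions of 4 Gy between day 0 and day 4, and there was no injected group without irradiation. The sources used here give neither the dose or schedule of the injections nor the age or sex of the rats. The other libraries of the series are colon, and jejunum of rats that were not irradiated, irradiated only, or given an oral powder or its vehicle.

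Compound Kushen injection is a Chinese herbal preparation that contains root extract of Sophora flavescens, with the alkaloids matrine and oxymatrine, and is given in clinics beside cancer treatment. The jejunal epithelium is renewed from dividing crypt cells, which radiation kills first, so that villi lose absorptive cells and then regrow from surviving crypts. Enterocytes take up nutrients, Paneth cells secrete lysozyme and defensins, tuft and enteroendocrine cells sense the gut content, and MHC class II molecules present antigen on immune cells and on the epithelium itself. The comparison asks what the injection changed in this tissue at the end of irradiation and 3 days later.

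No gene passed the edgeR test at either day or over both days. The gene with the smallest p at day 4 was the zinc transporter gene Slc30a2, whose median was 99.7 CPM (counts scaled to library size, per 1 M counts) in injected rats and 261 CPM in vehicle rats. At day 7 it was Kbtbd11, with medians of 52.6 CPM in injected and 33.0 CPM in vehicle rats. Over gene groups, day 4 estimates of DNA replication, mitosis and ribosome biogenesis genes were all above 0 and those of enterocyte absorption genes all below 0. Most members of these lists kept that side at day 7. At day 7 the estimates of MHC class II, Paneth, tuft and enteroendocrine genes were mostly below 0, and those members are given below with their values.

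The 24 libraries held from 17.36 to 19.8 M counts each. Tissue identity was checked against markers in the colon libraries of the same arms. Apoa4, an enterocyte apolipoprotein, lay between 1150 and 55200 CPM in jejunum and between 0.0454 and 29.5 CPM in colon. Car1, a colonocyte carbonic anhydrase, lay between 0 and 3.63 CPM in jejunum and between 90.4 and 10100 CPM in colon. By Apoa4 and Car1 the labelled tissue holds in all 24 jejunum libraries. Other colon markers did not part the tissues. Slc26a3 overlapped, with 26.1 to 219 CPM in jejunum and 81.5 to 6240 CPM in colon. Aqp8 had the higher median in jejunum, 14.1 CPM against 0.683 CPM in colon. The first principal component took 50.1% of the variance between libraries and parted the days, and the arms overlapped on it. Scores on it ran from -71.8 to 8.6 in injected and from -82.5 to 17.5 in vehicle rats at day 4, against 39.0 to 54.8 in injected and 25.6 to 58.0 in vehicle rats at day 7. The day 4 libraries nearest to day 7 were injection replicate 5 and vehicle replicate 6. The mitochondrial share of counts had a median of 19.9% in injected and 15.3% in vehicle rats at day 4 (two-sided exact permutation test, p = 0.539) and of 6.34% and 6.33% at day 7 (p = 0.574). Day 4 libraries were numbered in a pair of runs with both arms in each, the vehicle libraries before the injection libraries within each run. At day 7 all vehicle libraries were numbered before the injection libraries. What those numbers stand for is not given, so number and arm cannot be told apart at day 7 or within a run at day 4.

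**Figure D1:**
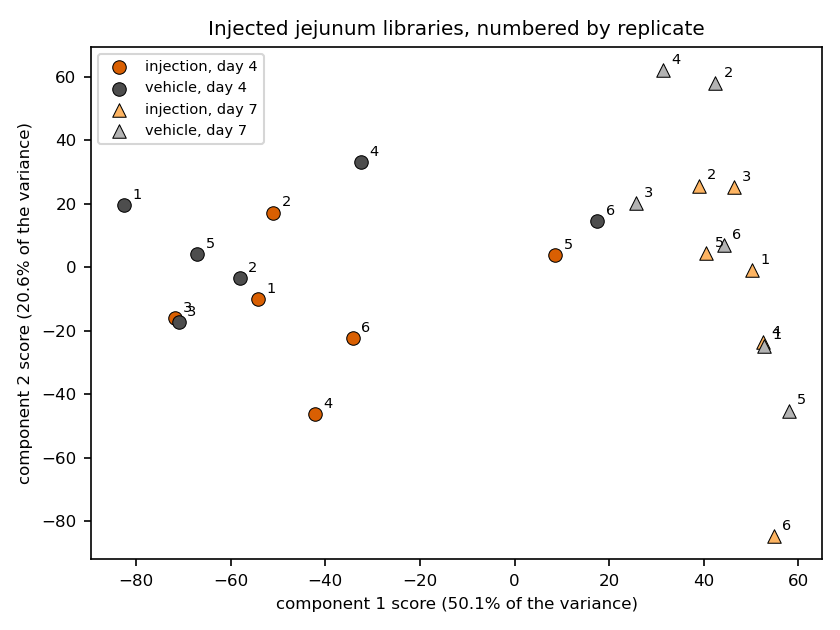
Scores of the 24 injected jejunum libraries on the first principal component (x axis, 50.1% of the variance) and the second (y axis, 20.6%), from log2 CPM. Points are libraries, numbered by replicate, with day 4 as circles and day 7 as triangles. The days part along the x axis, while injection and vehicle libraries overlap within each day.

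Of 12180 genes tested over both days, 0 were called (0% at an adjusted p under 0.05, edgeR quasi-likelihood test with Benjamini-Hochberg adjustment), and the smallest adjusted p was 0.613. At an unadjusted p under 0.05 there were 319 genes with a higher (2.62%) and 457 with a lower estimate (3.75%) in injected rats. Day 4 alone gave 0 calls, a smallest adjusted p of 0.341, and 514 higher (4.22%) and 498 lower genes (4.09%) at an unadjusted p under 0.05. Day 7 alone gave 0 calls, a smallest adjusted p of 0.122, and 98 higher (0.805%) and 244 lower genes (2%). The lower genes at day 7 were 90 when vehicle replicate 2 was left out, 112 for replicate 4 and 420 for replicate 1. DESeq2 on the same counts called 1 gene over both days, 9 at day 4 and 2 at day 7. The day 4 genes it called all had a lower estimate: Slc30a2, Xylt1, Tmem54, Lsg1, Gtf2ird1, C5ar2, Tifa, Stx12 and Ankfy1. At day 7 it called Kbtbd11 with a higher and Cyp2d5 with a lower estimate, and Cyp2d5 was also its call over both days.

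The precision bounds what could have been missed. The median standard error (SE) of a log2 difference was 0.14 over both days and 0.20 at 1 day. Over both days the 95% interval lay within 1 log2 unit of 0 for 88.6% of the genes, at day 4 for 75.2% and at day 7 for 79.8%. In the same fit the vehicle rats at day 7 differed from those at day 4 in 6168 genes (50.6%), 3103 higher and 3065 lower. The p-values measure the spread between libraries, which the labels call biological replicates.

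Slc30a2, which encodes the vesicular zinc transporter ZnT2, had the smallest p at day 4. Its lowest, median and highest values were 85.8, 99.7 and 118 CPM in injected rats, against 104, 261 and 726 CPM in vehicle rats. The injected rats sat together at the low end, and the vehicle rats spread upward from the same level. The log2 difference was -1.72 ± 0.35 (SE, 95% interval -2.45 to -1.0; edgeR adjusted p = 0.341; exact permutation test, p = 0.00649, n = 6 each). The permutation p is not adjusted for the picking of the gene by its p in the same libraries. It was -0.85 among the day 4 libraries numbered 1 to 6 and -2.34 among those numbered 19 to 24. Without vehicle replicate 6 it was -1.86 with an edgeR adjusted p of 0.0436, and without vehicle replicate 5 it was -1.34 with an adjusted p of 0.796. At day 7 the difference was -0.05 ± 0.34, with medians of 110 CPM in injected and 114 CPM in vehicle rats.

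Zinc genes of this kind are known targets of MTF1, a zinc-sensing transcription factor that binds metal response elements in mammals. Mtf1 itself lay at 16.9, 19.3 and 21.0 CPM in injected rats at day 4 and at 19.6, 25.2 and 27.5 CPM in vehicle rats, and the groups overlapped. Its log2 difference was -0.38 ± 0.09 (edgeR adjusted p = 0.477). At day 7 the Mtf1 difference was on the other side of 0, at 0.18 ± 0.09, and over both days it was -0.10 ± 0.06. The metallothionein genes Mt1 and Mt2A, which encode zinc-binding proteins, had differences of -0.91 ± 0.79 and -1.30 ± 0.96 at day 4, with intervals too wide to place them on either side of 0. Mtf1 was picked after its values were seen. The upstream window of Slc30a2 is shown because this gene had the smallest p, with matches to TGCACNC or TGCGCNC on either strand in capitals (RefSeq, GRCr8, chr5:151843201-151843500, + strand).
Slc30a2 upstream window: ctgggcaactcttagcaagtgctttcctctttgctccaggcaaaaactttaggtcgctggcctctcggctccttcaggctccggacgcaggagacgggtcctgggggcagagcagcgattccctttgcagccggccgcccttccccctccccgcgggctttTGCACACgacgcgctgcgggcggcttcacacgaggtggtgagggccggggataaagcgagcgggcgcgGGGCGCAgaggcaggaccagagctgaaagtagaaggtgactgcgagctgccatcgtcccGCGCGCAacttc
It held 3 matches, 1 on the strand shown and 2 on the other, with no overlap between them. The window of a second RefSeq start of the same gene (chr5:151843931-151844230) held 0. Of 33469 windows of 300 bases, 24.2% held at least 1 match and 1.68% at least 3. The windows of Mt1, Mt2A and Mtf1 held 6, 4 and 2. A match is a description of the letters and not evidence of binding.

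Xylt1, which encodes the enzyme that starts glycosaminoglycan chains on proteoglycans, was the second gene by p at day 4. It had 4.73, 5.35 and 5.93 CPM in injected rats, against 6.39, 9.95 and 17.3 CPM in vehicle rats. All 6 injected rats were below all 6 vehicle rats, and the log2 difference was -1.01 ± 0.21 (edgeR adjusted p = 0.341). The gene was picked by its p in these same libraries, so the separation is no further support. How many of all genes separate in this way was not counted. It was -0.59 in the libraries numbered 1 to 6 and -1.41 in those numbered 19 to 24. Lsg1, a GTPase gene of large ribosomal subunit maturation, had 22.2, 25.3 and 27.6 CPM in injected and 25.1, 37.2 and 75.9 CPM in vehicle rats (log2 difference -0.72 ± 0.17, edgeR adjusted p = 0.477). Without vehicle replicate 5 it was -0.47 with an adjusted p of 0.796. As with Slc30a2, the vehicle rats reached far above an injected group that varied little. Tmem54, which encodes a membrane protein, differed by -0.57 ± 0.13 and Gtf2ird1, a transcription factor gene, by -0.34 ± 0.08.

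Among genes with a higher day 4 estimate, Snx2, a sorting nexin gene of the retromer that returns membrane proteins from endosomes, had 35.0, 36.6 and 43.0 CPM in injected rats, against 28.4, 29.3 and 31.5 CPM in vehicle rats. The groups did not overlap, and the log2 difference was 0.35 ± 0.08 (edgeR adjusted p = 0.477). Slc48a1, which encodes a heme transporter, had 6.57, 6.80 and 7.26 CPM in injected and 4.14, 5.35 and 6.57 CPM in vehicle rats, a difference of 0.38 ± 0.11. Fam110a differed by 0.78 ± 0.23, Tmprss7, a membrane serine protease gene, by 0.70 ± 0.18, and Gdpd5, a glycerophosphodiester phosphodiesterase gene, by 0.31 ± 0.09. The Tmprss7 value rested in part on injection replicate 4, without which it was 0.50.

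**Figure D2:**
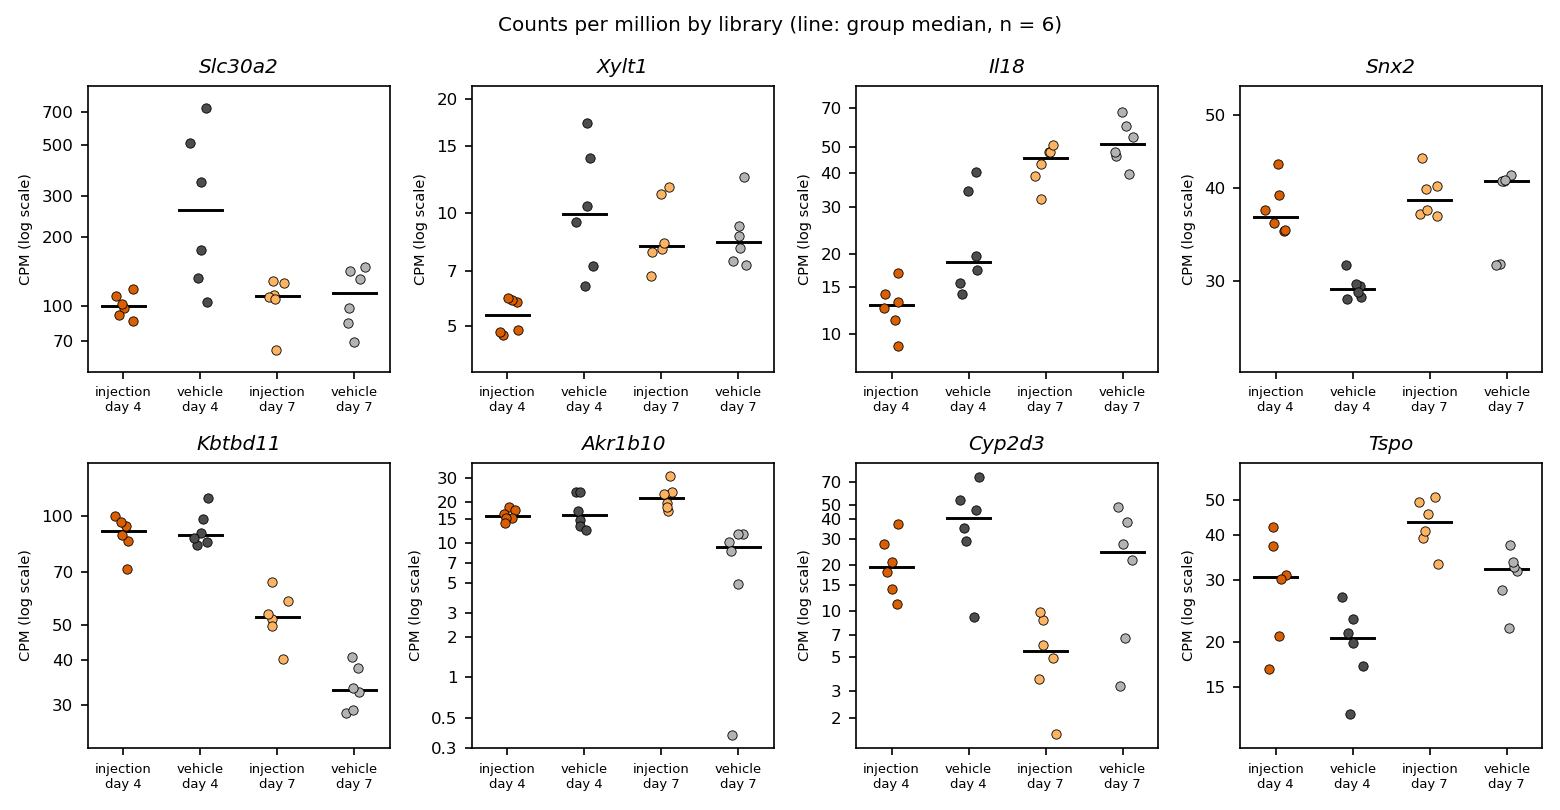
CPM of 8 genes (y axes, log scale) in the 24 libraries, by group, with injection left of vehicle within each day; points are libraries and lines are group medians of 6. Slc30a2 and Xylt1 vehicle libraries at day 4 spread above the injected ones, and Kbtbd11 and Akr1b10 injected libraries at day 7 lie above or at the top of the vehicle ones.

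Kbtbd11, which encodes a Kelch and BTB domain protein, had the smallest p at day 7. Injected rats had 40.3, 52.6 and 65.5 CPM and vehicle rats 28.4, 33.0 and 40.8 CPM. The ranges overlapped by 1 injected rat, and the log2 difference was 0.66 ± 0.12 (95% interval 0.41 to 0.90; edgeR adjusted p = 0.122; exact permutation test, p = 0.00433, n = 6 each). Without injection replicate 6 it was 0.72 with an edgeR adjusted p of 0.0306. At day 4 the difference was -0.05 ± 0.12, and the difference between the days was 0.71 ± 0.16 (edgeR adjusted p = 0.966).

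Akr1b10, an aldo-keto reductase gene whose enzyme reduces retinal and lipid aldehydes, had 17.1, 21.3 and 31.4 CPM in injected rats at day 7, against 0.37, 9.34 and 11.6 CPM in vehicle rats. The groups did not overlap, and 1 vehicle rat (replicate 5) lay far below the rest. The log2 difference was 1.5 ± 0.39 (edgeR adjusted p = 0.998). Kdm7a, a histone demethylase gene, had 24.7, 27.8 and 32.9 CPM in injected and 16.5, 21.7 and 24.2 CPM in vehicle rats, again without overlap (0.41 ± 0.12). Adra2a, which encodes an adrenergic receptor, did not overlap in the other direction, with 12.9, 16.8 and 18.7 CPM in injected and 18.8, 23.7 and 28.6 CPM in vehicle rats (-0.52 ± 0.14). Atp2b1, a plasma membrane calcium pump gene, differed by 0.58 ± 0.19 and Lmbrd2 by 0.46 ± 0.11. Sh2d7, which encodes an SH2 domain protein, had medians of 0.25 CPM in injected and 0.758 CPM in vehicle rats at day 7, a difference of -1.94 ± 0.55 at very low counts.

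Some genes leaned the same way at both days. Cyp2d3, a drug-metabolizing cytochrome P450 gene, had 1.59, 5.49 and 9.97 CPM in injected and 3.26, 24.6 and 48 CPM in vehicle rats at day 7. At day 4 it had 11.2, 19.6 and 37.2 CPM in injected and 9.19, 40.6 and 75.4 CPM in vehicle rats. All 12 injected rats lay below the vehicle median of their day, though the ranges overlapped, and the log2 difference over both days was -1.50 ± 0.38 (edgeR adjusted p = 0.613). Its close relative Cyp2d5, which averaged too few counts for the naming rule, differed by -2.30 ± 0.50. Reads may be split between such copies, so neither value is certain for 1 gene.

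Il18, an interleukin gene that gut epithelium expresses, had 9.05, 12.8 and 17.0 CPM in injected and 14.1, 18.6 and 40.5 CPM in vehicle rats at day 4. At day 7 it had 32.1, 45.6 and 51.0 CPM in injected and 39.7, 51.3 and 67.7 CPM in vehicle rats. Again 12 of 12 injected rats were below the vehicle median of their day, with a log2 difference of -0.58 ± 0.16 (edgeR adjusted p = 0.613; exact permutation test within day, p = 0.00207). Tspo, the gene of a translocator protein of the outer mitochondrial membrane, had 16.8, 30.5 and 42 CPM in injected and 12.6, 20.6 and 26.9 CPM in vehicle rats at day 4, and 33.2, 43.4 and 51.1 CPM in injected and 22.0, 32.1 and 37.5 CPM in vehicle rats at day 7. Of 12 injected rats 11 were above the vehicle median, and the difference was 0.52 ± 0.14.

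Of the other genes with the smallest p over both days, Ugt2b7, a glucuronidation gene of a family with similar copies, differed by 0.77 ± 0.27, Lgals12, a galectin gene, by 0.64 ± 0.20, Gcfc2 by 0.34 ± 0.11 and Lmna, which encodes lamins A and C, by 0.31 ± 0.11. Lower estimates were those of Clec2g, a C-type lectin gene (-0.51 ± 0.13), Cerk, the ceramide kinase gene (-0.51 ± 0.14), Cdc25a, whose phosphatase activates cyclin-dependent kinases (-0.25 ± 0.07), and Rbbp4, a histone-binding protein gene (-0.24 ± 0.06). All but Ugt2b7 and Lgals12 had an interval within 1 log2 unit of 0. None passed the test, each with an edgeR adjusted p of 0.613.

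A panel of 15 genes of stem cells, damage, differentiated cells and inflammation also gave 0 calls. Olfm4, a crypt stem cell marker gene, had medians of 3.03 CPM in injected and 5.09 CPM in vehicle rats at day 4, and of 162 and 165 CPM at day 7. Lgr5, the Wnt receptor gene of stem cells, differed by -0.21 ± 0.36 over both days, and Mki67, a proliferation marker gene, by 0.34 ± 0.24. Cdkn1a, the p21 gene that p53 induces after DNA damage, had medians of 458 CPM in injected and 415 CPM in vehicle rats at day 4, and its interval over both days was narrow (-0.07 to 0.28). The p53 target Ccng1 differed by 0.20 ± 0.17. The Olfm4 and Cdkn1a medians lay further apart between the days than between the arms.

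Of the differentiated cell genes in that panel, Lct, the brush border lactase gene, differed by -1.50 ± 0.68 over both days and Cyp3a9, a cytochrome P450 gene, by -0.66 ± 0.31. Fabp2, a fatty acid binding protein gene, differed by -0.43 ± 0.38, and Muc2, the goblet cell mucin gene, by -0.37 ± 0.31. Reg3g, which encodes an antibacterial lectin, had 270, 671 and 2280 CPM in injected and 197, 3000 and 9450 CPM in vehicle rats at day 4, but 571, 1840 and 10100 CPM in injected and 295, 843 and 4680 CPM in vehicle rats at day 7. Its estimates had opposite signs (-1.89 ± 0.85 and 1.27 ± 0.84). Cyp1a1, Il1b, Lcn2 and Clu, genes of aryl hydrocarbon receptor signalling, inflammation and regenerating epithelium, had intervals over both days of -1.35 to 1.14, -1.10 to 0.75, -0.61 to 1.45 and -0.48 to 1.56, which leave room for changes of over 2-fold.

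Gene lists are described by how many of their tested members had an estimate above 0 and by their median, beside 50% above 0 and a median of 0 over all 12180 genes at day 4. The share of all genes at an unadjusted p under 0.05, in either direction, was 8.31% at day 4, 2.81% at day 7 and 6.37% over both days. In bulk tissue, fewer cells of a type and less RNA per cell cannot be told apart. All 26 DNA replication genes were above 0 at day 4 (median log2 difference 0.52, 7 at an unadjusted p under 0.05), as were all 23 mitosis genes (0.59, with 4) and all 20 ribosome biogenesis genes (0.48, with 7). Members of such lists vary together from rat to rat, so their signs are not independent. The summed mitosis genes were 134, 268 and 668 CPM in injected and 88.9, 160 and 552 CPM in vehicle rats, with wide overlap. The highest rat of each arm was the library nearest to day 7, where the sums were 687, 864 and 1490 CPM in injected and 466, 784 and 1380 CPM in vehicle rats. With both of those libraries left out, all mitosis and DNA replication members were still above 0 and the medians were 0.74 and 0.62. Leaving out only 1 of them moved the medians in opposite directions. Without injection replicate 5 they were 0.31 for mitosis, 0.35 for DNA replication and 0.31 for ribosome biogenesis, and without vehicle replicate 6 they were 0.99, 0.76 and 0.72. At day 7, 22 of 23 mitosis, 23 of 26 DNA replication and 18 of 20 ribosome biogenesis genes were above 0. Their day 7 medians were 0.13, 0.14 and 0.11, and none was at an unadjusted p under 0.05. Of all genes 49.5% were above 0 at that day.

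Aurkb, the Aurora B kinase gene of chromosome segregation, had 14.6, 24.0 and 32.7 CPM in injected rats at day 4, against 8.45, 11.9 and 25.2 CPM in vehicle rats (log2 difference 0.83 ± 0.26). Myc, a growth-promoting transcription factor gene in the ribosome biogenesis list, had 16.0, 24.6 and 29.1 CPM in injected and 5.96, 13.2 and 21.7 CPM in vehicle rats (0.89 ± 0.30). Both groups overlapped for each gene, and the edgeR adjusted p was 0.58 for both. Pole, a DNA polymerase gene, differed by 0.67 ± 0.26.

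All 27 enterocyte absorption genes were below 0 at day 4 (median -0.45, or -0.30 without injection replicate 4). Of them 2 were at an unadjusted p under 0.05 (7.41%), no larger a share than the 8.31% of all genes. Slc15a1, the peptide transporter gene, had 412, 854 and 1370 CPM in injected and 622, 1750 and 2490 CPM in vehicle rats. Dpp4, a brush border peptidase gene, had 357, 459 and 728 CPM in injected and 548, 707 and 1150 CPM in vehicle rats. Both leaned low in injected rats within overlapping ranges, with log2 differences of -0.95 ± 0.41 and -0.63 ± 0.24. The summed list was 42900, 88600 and 107000 CPM in injected and 52300, 95200 and 144000 CPM in vehicle rats. At day 7, 24 of the 27 were below 0 (median -0.22), and without injection replicate 6 that median was -0.02.

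Smooth muscle markers had the highest list median at day 4, 1.92, with 11 of 11 above 0 and 7 at an unadjusted p under 0.05, and rested on 1 library. Cnn1, the gene of the contractile protein calponin, had 0.138, 0.978 and 22.4 CPM in injected and 0, 0.381 and 0.766 CPM in vehicle rats. Without injection replicate 4 the list median was 0.16, the fibroblast and matrix median 0.24 in place of 0.96, and the enteric nervous system median 0.08 in place of 0.83. That library held 546 CPM of summed smooth muscle genes, against 131 to 200 CPM in the other injected rats and 104 to 205 CPM in vehicle rats at day 4. It also had the highest mitochondrial share, 38%, and the lowest enterocyte sum of its day. Without it the mitosis and enterocyte medians kept their signs at day 4.

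Inflammation genes at day 4 were mostly below 0. Of 35 interferon response genes 26 were below 0 (median -0.43, or -0.28 without vehicle replicate 2), and of 17 inflammatory cytokine and enzyme genes 12 were (median -0.21, or -0.50 without injection replicate 4). Socs3, a cytokine-induced inhibitor gene, had 2.11, 6.25 and 12.4 CPM in injected and 2.82, 24.1 and 143 CPM in vehicle rats, a log2 difference of -2.55 ± 0.77 (edgeR adjusted p = 0.543). Outside those lists, Reg3b, an antibacterial lectin gene, had 109, 596 and 1940 CPM in injected and 72.5, 3010 and 9830 CPM in vehicle rats. Both genes had their highest values in vehicle rats, but the ranges overlapped down to the lowest rats. Reg3b stands in the Paneth cell and antimicrobial list, which had 7 of 11 members above 0 at day 4 and a median of 0.17. At day 7 the interferon median was 0.03, with 21 of 35 above 0, and the cytokine median 0.41, or -0.21 without injection replicate 6.

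At day 7, 10 of 11 MHC class II genes were below 0, beside 49.5% of all genes above 0. The median log2 difference of the list was -1.14, beside a median of 0 over all genes. Of those 10, 6 were at an unadjusted p under 0.05, as was the 1 member above 0, at 0.80. Of all genes 2.81% were at such a p at day 7. Cd74, the invariant chain gene, had 24.3, 42.2 and 146 CPM in injected and 47, 152 and 372 CPM in vehicle rats. RT1-Da, a class II alpha chain gene, had 9.96, 12.3 and 38.5 CPM in injected and 12.0, 41.1 and 108 CPM in vehicle rats. Injected rats leaned low with overlap, and the differences were -1.53 ± 0.53 and -1.40 ± 0.52 (edgeR adjusted p = 0.998 for both). The summed list was 155, 309 and 654 CPM in injected and 294, 621 and 1370 CPM in vehicle rats, and the list median stayed between -1.37 and -0.82 with any 1 library left out. Vehicle replicates 2 and 4 had the highest sums, 1370 and 1180 CPM, against 623 CPM or less in the other vehicle rats. Leaving out both of them together was not tested. Class II genes at day 4 had a median of -0.09 and sums of 2120 to 4200 CPM in injected and 1190 to 4960 CPM in vehicle rats.

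Macrophage markers leaned the same way: 10 of 11 were below 0 at day 7 (median -0.67, or -0.34 without vehicle replicate 1), their sum was 63.1, 71.7 and 113 CPM in injected and 59.2, 139 and 398 CPM in vehicle rats, and Lyz2 stands in both that list and the Paneth list. The part of macrophage content in the class II values was not tested. At day 4 the macrophage list leaned up, with 9 of 11 above 0 and a median of 0.31. B and plasma cell and T cell markers had day 7 medians of -0.26 and -0.22.

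Paneth cell and antimicrobial genes had a day 7 median of -1.02, with 7 of 11 below 0 and 4 of them at an unadjusted p under 0.05. Lyz2, a lysozyme gene, had 23.0, 45.2 and 83.2 CPM in injected and 37.7, 66.3 and 346 CPM in vehicle rats, a difference of -1.38 ± 0.41. Defa24 and Defa8, defensin genes with similar copies, differed by -1.94 ± 0.69 and -1.38 ± 0.52. The 4 members above 0 reached 1.27 for Reg3g, and the summed list leaned the other way, with 4530, 8540 and 32200 CPM in injected and 3640, 6380 and 17300 CPM in vehicle rats. The lower values leaned on vehicle replicate 2, without which the Lyz2 difference was -0.74 and the list median -0.42. At day 4 the Lyz2 difference was 0.39 ± 0.41.

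Of 15 tuft cell genes 11 were below 0 at day 7 (median -0.68, 5 at an unadjusted p under 0.05, those 5 at under 2 CPM in every library of that day), and the median was -0.33 without vehicle replicate 4. Dclk1, a tuft cell kinase gene, had 0.074, 0.213 and 0.351 CPM in injected and 0.259, 0.506 and 1.5 CPM in vehicle rats, and Pou2f3, the transcription factor gene of that lineage, had 0.074, 0.219 and 0.361 CPM in injected and 0.144, 0.387 and 1.07 CPM in vehicle rats. The summed tuft list leaned the other way, 25.0, 40.8 and 140 CPM in injected and 28.1, 35.9 and 80.0 CPM in vehicle rats, with injection replicate 6 highest. Of 20 enteroendocrine genes 17 were below 0 (median -0.50, or -0.33 without injection replicate 6), among them the cholecystokinin gene Cck with 4.11, 12.9 and 24.5 CPM in injected and 12.1, 25.5 and 43.2 CPM in vehicle rats. Of 23 fatty acid oxidation and ketogenesis genes 22 were below 0 (median -0.25, or -0.13 without vehicle replicate 3), among them Pdk4, which encodes a kinase that restrains glucose oxidation, with 33.5, 53.6 and 59.5 CPM in injected and 27.9, 95.5 and 188 CPM in vehicle rats. None of these genes passed the test.

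**Figure D3:**
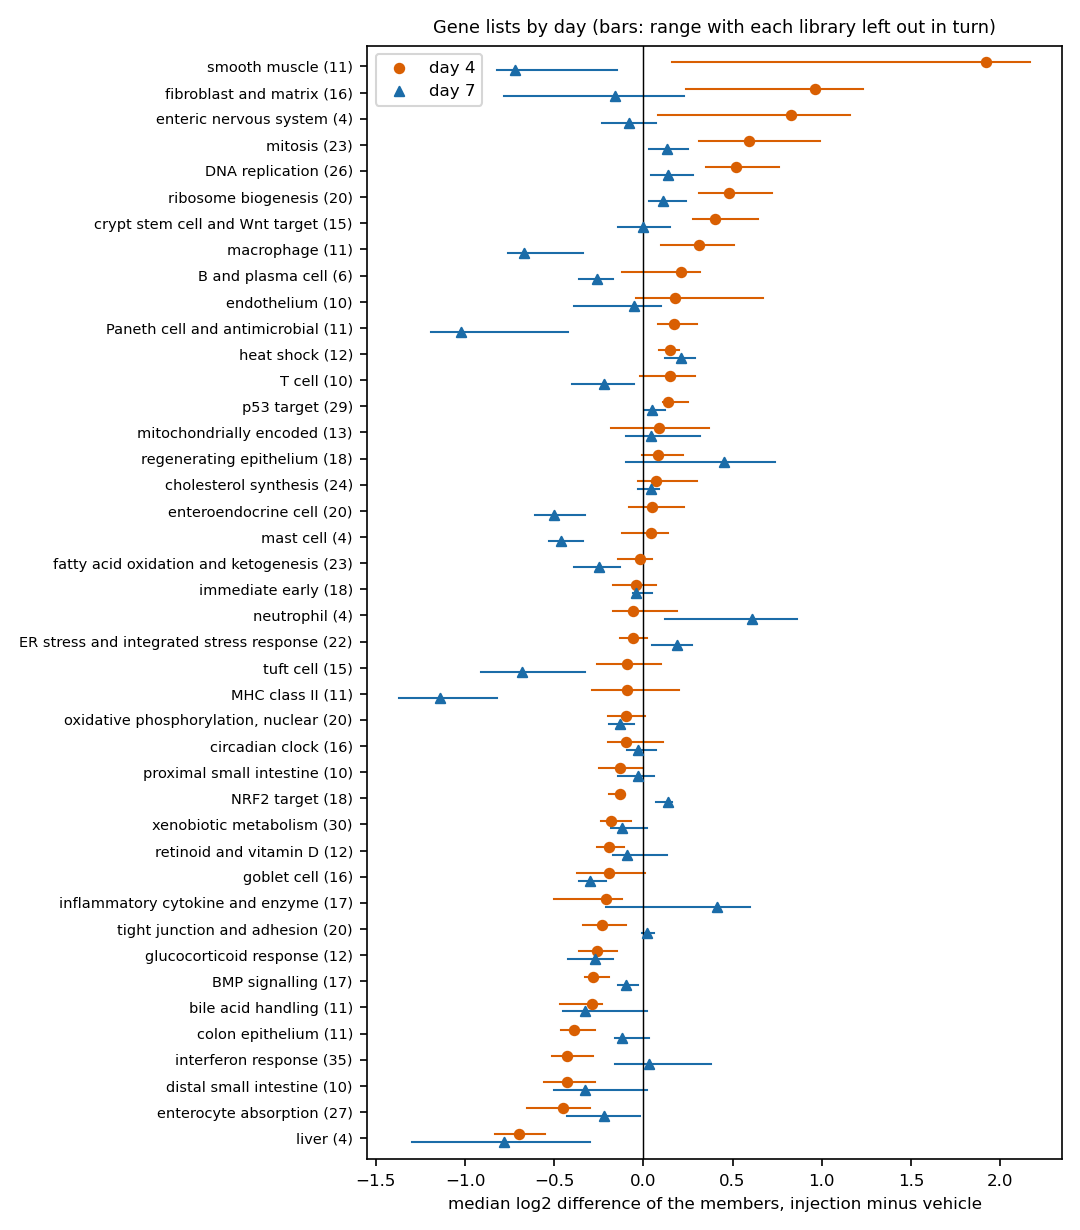
Median log2 difference, injection minus vehicle (x axis), of the tested members of each gene list (rows, number of members in parentheses), at day 4 (circles) and day 7 (triangles); bars give the range of the median when each library of the day is left out in turn. Smooth muscle at day 4 has its median at 1.92 and a bar that reaches 0.16, while MHC class II at day 7 stays at or below -0.82.

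Of the other lists, some had medians within 0.2 of 0 at both days. The 29 p53 targets had medians of 0.14 at day 4 and 0.05 at day 7, the 18 NRF2 targets -0.13 and 0.14, the 30 xenobiotic metabolism genes -0.18 and -0.12, the 22 endoplasmic reticulum and integrated stress genes -0.06 and 0.19, and the 24 cholesterol synthesis genes 0.07 and 0.04. Others lay further off. The 15 crypt stem cell and Wnt target genes had a median of 0.40 at day 4, with 12 above 0 and 4 at an unadjusted p under 0.05 (0.64 without vehicle replicate 6), and of 0.00 at day 7. Of 11 colon epithelium markers 10 were below 0 at day 4 (median -0.39, 4 at an unadjusted p under 0.05), and the day 7 median was -0.12. All 11 bile acid handling genes were below 0 at day 4 (median -0.29, or -0.47 without injection replicate 1), and 7 were at day 7 (median -0.33, or 0.02 without vehicle replicate 6). The 10 distal small intestine genes, which share members with them, had medians of -0.43 and -0.33, or -0.27 at day 4 without vehicle replicate 4 and 0.02 at day 7 without vehicle replicate 6. Glucocorticoid response genes had medians of -0.26 at day 4 and -0.27 at day 7. Over both days their median was -0.41, or -0.15 without vehicle replicate 3 of day 4. Of 12 members 10 were below 0 over both days, 4 of them at an unadjusted p under 0.05. The 4 tested liver markers had medians of -0.70 at day 4 and -0.78 at day 7, or -0.30 at day 7 without vehicle replicate 2. Goblet cell genes had medians of -0.19 and -0.30, with 10 and 13 of 16 below 0, and the day 4 value was 0.01 without vehicle replicate 4. Smooth muscle markers had a day 7 median of -0.72, or -0.15 without vehicle replicate 1. Neutrophil markers were few, with 4 tested and medians of -0.06 and 0.61, and the day 7 value was 0.12 without injection replicate 6.

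The estimates were also set beside the irradiation response of other rats, in irradiated untreated against non-irradiated jejunum, which share no library with the injected groups. At day 4, 1532 genes (13%) were over 2-fold higher and 725 (6.17%) over 2-fold lower after irradiation, and at day 7 2034 (17.3%) and 1251 (10.6%), each at an edgeR adjusted p under 0.05 of 11753 genes. Of the genes raised at day 4, 72.6% had an injection estimate above 0 (median 0.30), and of those lowered 32.0% did (median -0.16, 687 genes tested in both). At day 7, 78.4% of the raised genes were above 0 (median 0.12) and 15.0% of the 1191 lowered ones (median -0.30). At an unadjusted p under 0.05, the genes raised at day 4 held 171 higher (11.2%) and 43 lower estimates (2.81%), beside 4.22% and 4.09% of all genes, and those lowered at day 4 held 1 higher (0.146%) and 13 lower (1.89%). The genes raised at day 7 held 18 higher (0.885%) and 5 lower estimates (0.246%), beside 0.805% and 2% of all genes, and those lowered at day 7 held 5 higher (0.42%) and 116 lower (9.74%). The injection estimates lay on the same side as the irradiation response more often than on the other, at both days.

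Per rat the same values overlapped widely. The mean log2 CPM of the genes lowered at day 7 was 2.47, 3.10 and 3.36 in injected and 2.75, 3.30 and 3.80 in vehicle rats. Across 11668 genes, which are not independent and which share the libraries of each fit, the injection and irradiation estimates had a Pearson r of 0.28 at day 4 and 0.48 at day 7. Leaving out 1 library moved the day 7 value between 0.29, without injection replicate 6, and 0.55, and the day 4 value between 0.19 and 0.37. Injection replicate 6 at day 7 had the lowest enterocyte sum, 15300 CPM against 47200 to 62200 CPM in the other injected rats of that day.

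**Figure D4:**
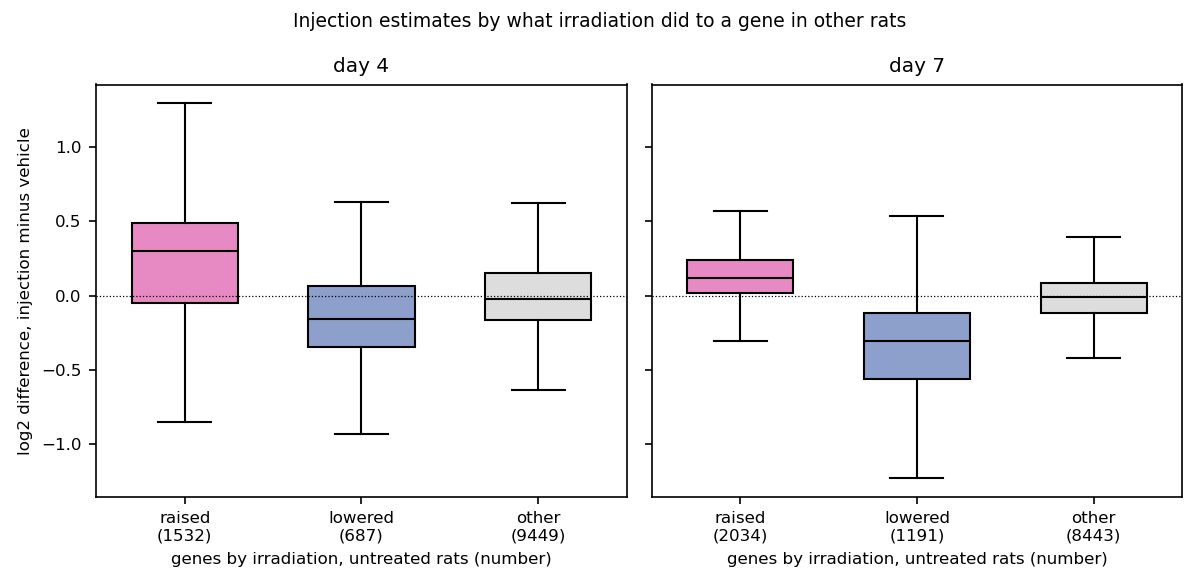
Log2 difference, injection minus vehicle (y axis), at day 4 (left) and day 7 (right), for genes raised, lowered or neither by irradiation in untreated rats (x axis, with their number). Boxes give quartiles and medians, and outlying genes are not drawn; the medians are 0.30 and -0.16 at day 4 and 0.12 and -0.30 at day 7 for raised and lowered genes.

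Whether the injection estimate differed between days, tissues or preparations was tested directly. The day 7 estimate differed from the day 4 estimate in 0 of 12180 genes (0%, 512 at an unadjusted p under 0.05), and across genes the r between the days was 0.21. The jejunum estimate differed from that in colon in 0 of 13566 genes (0%, 475 at an unadjusted p under 0.05), and r was 0.02. Colon and jejunum libraries of an arm carry the same library numbers. Whether a shared number means the same rat is not given. This fit treated the libraries as independent, and the colon and jejunum estimates may not be. The injection had 0 calls in colon (0%). Kbtbd11 had an estimate of 0.39 ± 0.14 in colon over both days, on the same side as in jejunum, 0.30 ± 0.08.

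The powder, set against its own oral vehicle in jejunum, called 2 of 12600 genes (0.0159%), Arntl and Bcas1, both lower. The injection estimate differed from that of the powder in 0 genes (0%, 1020 at an unadjusted p under 0.05; DESeq2 called 3, Gadd45a, Matn2 and Bbx), and r was -0.20. Tspo had one of the smallest p-values there, with 0.52 ± 0.14 for the injection and -0.39 ± 0.15 for the powder, a difference of 0.90 ± 0.21 (edgeR adjusted p = 0.268). Injected and oral libraries differ in the first digit of their library names, so each preparation was compared with its own vehicle only.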

How the data were processed

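RNA from jejunum epithelium was sequenced on a DNBSEQ-G400 with paired-end reads, per the labels' protocols. The authors deposited raw, unscaled read counts for 21837 gene symbols, from reads aligned with STAR 2.7.10a to mRatBN7.2, per the submitters' processing notes. The labels name no counter, annotation or strand setting, so overlapping and antisense genes cannot be told apart, and gene positions are not in the tables.

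Genes were tested with the edgeR quasi-likelihood test (edgeR 4.0.16, R 4.3.3; TMM, filterByExpr by group) in 1 fit of the 24 libraries with no covariate. Contrasts were injection minus vehicle at each day and averaged over days, and a gene was called at a Benjamini-Hochberg adjusted p under 0.05 over all genes tested. Every adjusted p of a gene is from this test unless DESeq2 (1.42.0) is named. Differences between tissues and preparations used 48 libraries each, and the irradiation response 18 others. Levels of single genes are TMM-scaled CPM, given as lowest, median and highest of 6 libraries. Summed lists are given the same way, but as CPM of all counts of a library, mitochondrial ones included, without TMM factors. Sums and single-gene levels are therefore not on the same scale. Two-sided exact permutation tests over libraries (924 orders within a day) used log2(CPM + 0.5) for genes, and principal components used log2 CPM. For genes picked by smallest p, the permutation p reuses the same libraries and is not adjusted for that choice, so it is no further support. The same holds where the groups of such a gene do not overlap, and for counts of rats above or below the vehicle median. The edgeR step was tested on simulated counts with larger fold changes than most estimates given here. That simulation cannot show how many small differences were missed.

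The comparison, the 44 gene lists (850 symbols, 792 found, 4 under an alias, Muc2 as AABR07006030.1) and the tests were chosen with earlier results of these data known. The genes named are those of smallest p in each direction that have a symbol and average 5 CPM or more (8 per direction over both days, 5 at each day), members of smallest p of 6 lists (mitosis, enterocyte, smooth muscle, MHC class II, Paneth, tuft) and a panel. Sis of that panel is not analysed here. Members of 5 further lists (DNA replication, ribosome biogenesis, inflammatory, enteroendocrine, fatty acid oxidation), Mtf1, Mt1, Mt2A, Cyp2d5 and the genes called by DESeq2 were named after their values were seen. Alternatives were DESeq2, RLE factors, other filters, a mitochondrial covariate, blocks, number runs and leaving out libraries.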

Additional observations from a re-analysis of the deposited data

Results flagged for a closer look

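In groups of 6 libraries, 156 sets of values were searched for a lowest or highest library far from the nearest other (Dixon's test at 95%), and 9 had one, where chance gives about 1 in 20. Of these, 3 belong to injection replicate 6 at day 7, with a total of 19.37 M counts, a mitochondrial share of 9.16% and 15300 CPM of summed enterocyte genes. Injection replicate 4 at day 4 stood out with 546 CPM of summed smooth muscle genes. Vehicle replicate 5 at day 7 stood out with 0.37 CPM of Akr1b10 and 80.0 CPM of summed tuft cell genes. The others were Cerk in vehicle replicate 6 at day 4 (60.2 CPM), Slc30a2 in injection replicate 4 at day 7 (64.5 CPM) and Rbbp4 in injection replicate 1 at day 7 (58.0 CPM).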

How the results depend on the processing

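DESeq2 gave 1 call over both days, 9 at day 4, 2 at day 7, 3 for injection minus powder and 13 for the powder, against 0, 0, 0, 0 and 2 with edgeR. Leaving out 1 library gave 0 to 16 calls at day 4 (16 without vehicle replicate 6: Slc30a2, Xylt1, Mtf1, Cerk, Cldn12, Sptlc2, Sh3tc1 and Kif13b lower and 8 higher), 0 to 1 at day 7 (Kbtbd11, without injection replicate 6) and 5262 to 7120 for the vehicle rats between days, where the mitochondrial covariate gave 2597. The cause was not tested. RLE factors, other filters, the covariate, a term for number runs, fits of 1 day and leaving out both day 4 libraries nearest to day 7 (chosen after seeing the data, as were the single number runs) gave 0 calls for injection at each day, over both days and in the tests of difference they were run for. Libraries of the same replicate label in both arms of a day correlated between -0.54 and 0.61 over 12 pairs. Of these pairs 4 were over 0.1 and 2 had their own replicate as the best. Such correlations cannot settle whether replicates are paired. The main fit assumed no pairing, and the replicate block gave 0 calls. Of 968 values of the genes of smallest p under alternatives (36 results of a gene in a comparison; the panel and list members were not included), 942 moved by less than 1 SE, 17 moved by more, 9 passed the test and 0 changed sign. Genes with a few counts are limited by depth as well as by the spread between rats.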
